A study of Homo sapiens with 3 samples.

Results

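The genes described here are the 10 that encode the cap-binding translation factors of eIF4F and its close regulators: EIF4A1, EIF4A2, EIF4B, EIF4E, EIF4E2, EIF4EBP1, EIF4EBP2, EIF4G1, EIF4G2 and EIF4G3. They were found by symbol among 57268 gene rows, 1 row for each of the 10, and all 10 were among the 16072 genes with a mean level of 1 CPM (counts per 1e6 reads, after scaling of library sizes) or more. The group was chosen by its biology together with a measured value, since EIF4A1 was already known to lie high in the comparison of ADAR2+SRSF9 with ADAR2. Its ratios are therefore a description, and the question asked is how far EIF4A1 stands from its partners.

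RNA came from HEK293T, a line derived from human embryonic kidney, as the cell line and source labels state, while the sample titles read HEK293. The data are 3 libraries, each the only one of its group: cells overexpressing ADAR2 together with SRSF9 (ADAR2+SRSF9), cells overexpressing ADAR2 alone (ADAR2), and cells with no overexpression (control). ADAR2 is an enzyme that turns adenosine into inosine in double-stranded RNA, and SRSF9 is a splicing factor whose effect on editing at ADAR2 sites the study addressed. How the proteins were expressed, and whether the control received an empty vector, is not given in the sources used here. Without replicates no difference below has a replicate check and no p-value is given. The intervals are exact 95% counting intervals and cover counting error only.

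The libraries held 97875935 reads for ADAR2+SRSF9, 132887974 for ADAR2 and 152878282 for the control. The overexpressed genes matched the labels: ADARB1, which encodes ADAR2, was at 13647 CPM in ADAR2+SRSF9, 16100.0 in ADAR2 and 113.6 in the control, and SRSF9 at 18288, 369 and 372 CPM in the same order. Of 9 HEK293 markers, 8 had a mean of 1 CPM or more, and 0 of 3 hepatocyte markers did. Of 5 fibroblast markers 1 did, and of 8 blood markers 5. Of those, the globin genes HBB and HBD stood apart in ADAR2+SRSF9, HBB with 36744 reads there, 154 in ADAR2 and 222 in the control, and HBD with 90665, 476 and 570. The globin gene HBA1 had 602, 878 and 781 reads in the same order, at 1.29 times the control in ADAR2 (1.17 to 1.43). Their part in the results below was not tested.

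In eukaryotes most messenger RNAs are translated from their 5′ cap. eIF4E binds the cap, eIF4G is the scaffold that holds eIF4E and the RNA helicase eIF4A, and eIF4A unwinds structure ahead of the scanning ribosome with the help of eIF4B. The eIF4E-binding proteins compete with eIF4G for eIF4E until the kinase mTOR phosphorylates them. EIF4A1 and EIF4A2 encode close paralogues of the helicase, and EIF4A1 is known as one of the abundant messenger RNAs of growing cells.

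EIF4A1 also has many intronless copies in the genome. The coding sequence is shown here around the DEAD-box codons, bases 475 to 624 counted from the A of the start codon, for EIF4A1 on chromosome 17, its processed pseudogene EIF4A1P10 on chromosome X and its paralogue EIF4A2 on chromosome 3. The sequences are from GENCODE v29 transcripts on GRCh38, and capitals mark bases that differ from EIF4A1. They are printed because the question of which row a read falls in turns on how alike they are.
EIF4A1: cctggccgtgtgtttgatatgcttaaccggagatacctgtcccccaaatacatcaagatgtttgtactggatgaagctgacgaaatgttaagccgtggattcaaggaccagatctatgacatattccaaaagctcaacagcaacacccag
EIF4A1P10: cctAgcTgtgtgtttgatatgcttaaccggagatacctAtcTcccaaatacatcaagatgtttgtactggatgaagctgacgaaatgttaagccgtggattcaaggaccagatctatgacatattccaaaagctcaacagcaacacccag
EIF4A2: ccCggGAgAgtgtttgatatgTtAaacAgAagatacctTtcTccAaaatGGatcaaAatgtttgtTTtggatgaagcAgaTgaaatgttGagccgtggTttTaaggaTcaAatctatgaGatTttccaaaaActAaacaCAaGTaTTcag
In this stretch EIF4A1P10 differed from EIF4A1 at 4 bases and EIF4A2 at 33. Over the whole aligned coding sequence EIF4A1P10 was 97.1% identical to EIF4A1, with a longest identical run of 136 bases, whereas EIF4A2 was 76.9% identical with a longest run of 20. Read length is not given in the sources used here, and a read that lies inside an identical run fits both places equally.

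The EIF4A1 row (ENSG00000161960.10, chromosome 17) was higher in ADAR2+SRSF9 than in both other libraries, while its 9 partners differed little. It held 2127 reads in ADAR2+SRSF9, 2002 in ADAR2 and 2482 in the control, which is 22.2, 14.9 and 16.1 CPM. The ADAR2 and control levels lay close together and the ADAR2+SRSF9 level above both. ADAR2+SRSF9 was at 1.49 times the ADAR2 level (1.40 to 1.58) and 1.38 times the control level (1.30 to 1.46). ADAR2 itself was at 0.928 times the control (0.875 to 0.985). These values are of the gene's own row: once the rows of its pseudogenes were added, ADAR2+SRSF9 was lower than ADAR2, at 0.882 times (0.854 to 0.911), as set out further on.

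In log2 terms EIF4A1 was at 0.57 in ADAR2+SRSF9 against ADAR2, and the 9 partners lay between -0.08 for EIF4B and 0.08 for EIF4EBP1, with a median of 0.03. The median of all 16072 genes was 0.01, and their central 90% ran from -0.43 to 0.29. EIF4A1 ranked 158th from the top. The distance from EIF4A1 to its nearest partner was 0.49. Against the control, EIF4A1 was at 0.47 and the partners between -0.19 and 0.22 with a median of -0.08. There EIF4A1 ranked 546th, and the distance to the nearest partner, again EIF4EBP1, was 0.24. In ADAR2 against control EIF4A1 was inside the range of its partners, at -0.11 beside a median of -0.09.

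**Figure D1:**
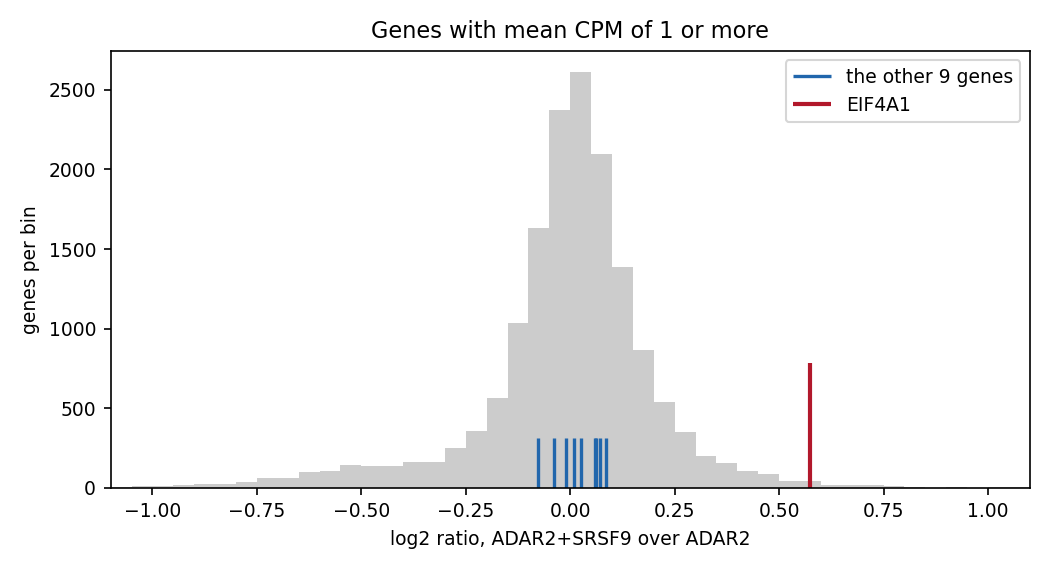
Number of genes per bin of log2 ratio (ADAR2+SRSF9 over ADAR2, x axis) among the genes whose mean level reached 1 CPM, with marks for EIF4A1 and the other 9 genes; 52 of the 16072 genes lie outside the plotted range. EIF4A1 sits at 0.57, and the other 9 genes lie between -0.08 and 0.08 near the centre.

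A gene is counted below as past the threshold when it was at least 25% higher, or at least 20% lower (the inverse fold), and its counting interval excluded 1. In ADAR2+SRSF9 against ADAR2, 1 of 10 genes was higher (EIF4A1) and 0 were lower, where 4.12% of all genes were higher and 6.99% lower. Among protein-coding genes, as all 10 are, the shares were 2.89% and 1.64%. Among genes with a mean of 10 CPM or more, as all 10 have, the share of higher genes was 0.492% and that of lower genes 2.22%. In ADAR2+SRSF9 against control, 1 was again higher (EIF4A1) and 0 lower, where 9.56% of genes were higher and 9.21% lower, or 5.64% higher at 10 CPM or more. That even split of 1536 higher and 1481 lower genes becomes 1103 and 1929 with plain library totals and 757 and 1140 with a trend in GC content removed. In ADAR2 against control 0 of 10 were past the threshold, beside 4.52% of genes higher and 3.84% lower. Each pair of these comparisons shares a library, so they are not independent.

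**Figure D2:**
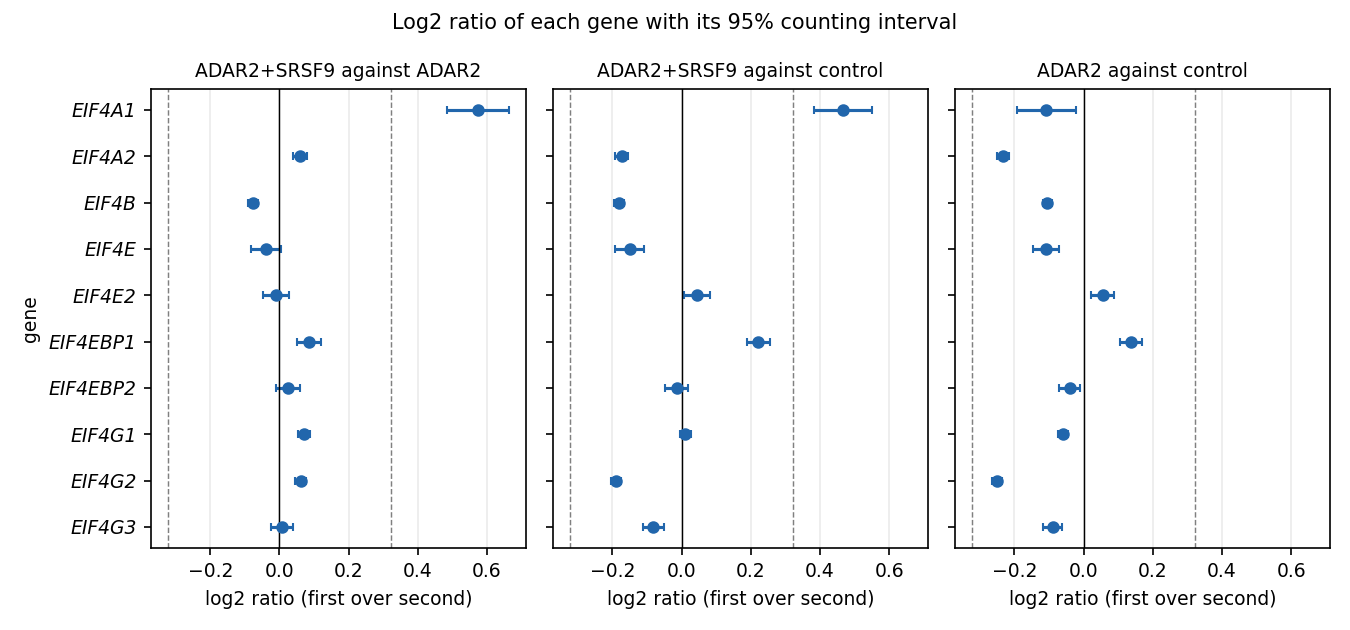
Log2 ratio (x axis, first library over second) of each of the 10 genes in the 3 comparisons, with bars for the 95% counting interval and dashed lines at 25% higher and 20% lower. EIF4A1 lies past the line on the higher side in both comparisons of ADAR2+SRSF9, and the other 9 genes lie inside the lines in every panel.

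Among the helicase genes, the paralogue EIF4A2 (ENSG00000156976.10, chromosome 3) did not share the EIF4A1 pattern. It held 35129 reads in ADAR2+SRSF9, 47211 in ADAR2 and 63789 in the control (366, 352 and 413 CPM). The control was highest and the other libraries lay close together. EIF4A2 was at 1.04 times the ADAR2 level in ADAR2+SRSF9 (1.03 to 1.06) and, in ADAR2, at 0.852 times the control (0.842 to 0.862). A share of reads between the paralogues needs no scaling of libraries: EIF4A1 made up 5.71% of the reads of both rows in ADAR2+SRSF9 (5.48 to 5.95, exact Clopper-Pearson), 4.07% in ADAR2 (3.90 to 4.25) and 3.75% in the control (3.60 to 3.89).

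EIF4B (ENSG00000063046.13, chromosome 12), the RNA-binding cofactor of the helicase, was lowest in ADAR2+SRSF9. Its levels were 617 CPM there, 650 in ADAR2 and 699.6 in the control, from 59122, 87294 and 108080 reads. ADAR2+SRSF9 was at 0.949 times ADAR2 (0.939 to 0.958) and 0.882 times the control (0.873 to 0.890). For each 1000 reads of EIF4B there were 35.98 reads of EIF4A1 in ADAR2+SRSF9, 22.9 in ADAR2 and 22.96 in the control.

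The cap-binding genes differed little between libraries. EIF4E (ENSG00000151247.8, chromosome 4) was at 75.5 CPM in ADAR2+SRSF9, 77.6 in ADAR2 and 83.7 in the control, from 7235, 10414 and 12929 reads. The counting interval of ADAR2+SRSF9 against ADAR2 included 1 (0.973, 0.944 to 1.003). EIF4E2 (ENSG00000135930.9, chromosome 2), whose product binds the cap without eIF4G and is known as a repressor of translation, was at 101.0, 101.8 and 97.96 CPM in the same order, from 9686, 13662 and 15134 reads. Its interval in ADAR2+SRSF9 against ADAR2 included 1 as well (0.993, 0.967 to 1.019). EIF4E made up 42.8% of the reads of these 2 genes in ADAR2+SRSF9, 43.3% in ADAR2 and 46.1% in the control.

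Of the scaffold genes, EIF4G1 (ENSG00000114867.15, chromosome 3) was at 515 CPM in ADAR2+SRSF9, 490.2 in ADAR2 and 511 in the control, from 49385, 65817 and 78966 reads. EIF4G3 (ENSG00000075151.15, chromosome 1), the paralogous scaffold, was at 147, 146 and 155 CPM from 14075, 19598 and 23999 reads. EIF4G1 held 77.8% of the reads of these scaffolds in ADAR2+SRSF9, 77.1% in ADAR2 and 76.7% in the control. EIF4G2 (ENSG00000110321.11, chromosome 11), whose product lacks the eIF4E-binding region and serves cap-independent initiation, was at 605, 580 and 689.5 CPM from 58005, 77838 and 106528 reads. It was the lowest of the 10 in ADAR2 against control, at 0.841 times (0.833 to 0.849), and EIF4A2 was next, an order that did not hold once the trend with GC content was removed, when EIF4G1 was lowest at -0.17 on the log2 scale and EIF4G2 at -0.12. The control value stood above both overexpressing libraries for EIF4G2, as it did for EIF4A2, EIF4B, EIF4E, EIF4G3 and, narrowly, EIF4EBP2. With the GC trend removed this no longer held for EIF4E and EIF4EBP2. On the log2 scale EIF4E was then at 0.03 in ADAR2 against control and 0.008 in ADAR2+SRSF9 against control. EIF4EBP2 was at 0.05 and 0.08 in the same order. EIF4G3 stayed below the control but only at -0.02 in each.

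The genes of the eIF4E-binding proteins differed from each other. EIF4EBP1 (ENSG00000187840.4, chromosome 8) was highest in ADAR2+SRSF9 at 126 CPM, then 118 in ADAR2 and 108 in the control, from 12048, 15909 and 16646 reads. Its ratio was 1.06 in ADAR2+SRSF9 against ADAR2 (1.04 to 1.09), 1.17 in ADAR2+SRSF9 against control (1.14 to 1.19) and 1.099 in ADAR2 against control (1.08 to 1.12). EIF4EBP2 (ENSG00000148730.6, chromosome 10) was level at 123, 120 and 124 CPM from 11755, 16173 and 19128 reads. EIF4EBP1 thus held 50.6% of the reads of the 2 genes in ADAR2+SRSF9, 49.6% in ADAR2 and 46.5% in the control. EIF4EBP1 had the highest GC content of the 10 transcripts at 65.5%, EIF4A2 the lowest at 38.7%, and EIF4G2 was at 40.5%. With the trend of ratio with GC content over protein-coding genes removed, EIF4EBP1 turned on the log2 scale to -0.04 in ADAR2+SRSF9 against control, where it was at 0.22 before, and to -0.05 in ADAR2 against control. EIF4A2 moved to -0.01 in ADAR2+SRSF9 against control and -0.08 in ADAR2 against control, and EIF4G2 to -0.05 and -0.12. EIF4G1, with a GC content of 57.4%, moved away from 0: to -0.13 in ADAR2+SRSF9 against control, where it was at 0.01 before, and to -0.17 in ADAR2 against control, where it was at -0.06. EIF4A1, with a GC content of 49.6%, stayed at 0.57 against ADAR2 and 0.47 against the control in ADAR2+SRSF9, where its partners then lay between -0.08 and 0.07 and between -0.13 and 0.09.

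**Figure D3:**
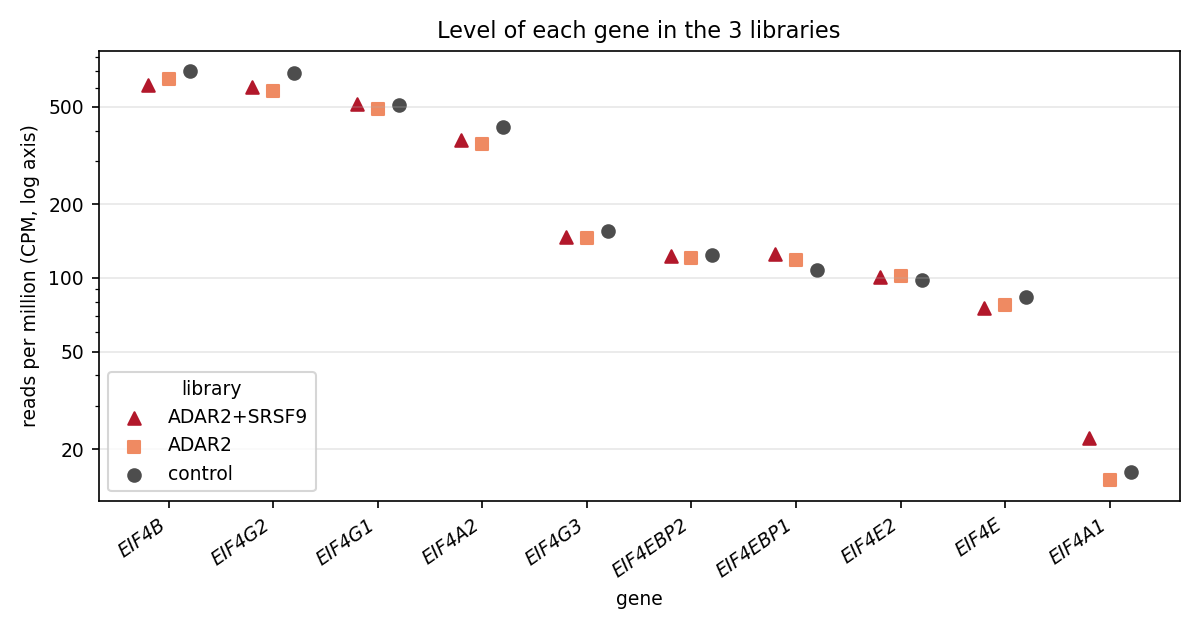
Level of each of the 10 genes (y axis, CPM on a log axis) in the ADAR2+SRSF9, ADAR2 and control libraries, 1 point per library. EIF4A1 is lowest in all 3 libraries, between 14.9 and 22.2 CPM, and EIF4B is highest, between 617 and 699.6 CPM.

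EIF4A1 also stood apart in its level. Per kilobase of exon bases it was at 4.17 CPM in ADAR2+SRSF9, 2.81 in ADAR2 and 3.02 in the control, the lowest of the 10 in each library. EIF4A2 was at 59.7, 57.3 and 67.3 CPM per kilobase. In the control 35.4% of 12765 protein-coding genes had a lower level per kilobase than EIF4A1, against 96.4% for EIF4A2 and 98.1% for EIF4B. The order in the control was EIF4B at 113.8 CPM per kilobase, EIF4EBP1 at 100.4, EIF4G2 at 79.7, EIF4A2 at 67.3, EIF4G1 at 61.9, EIF4EBP2 at 17.1, EIF4G3 at 16.2, EIF4E2 at 13.6, EIF4E at 5.95 and EIF4A1 last. No neighbours in this order had overlapping counting intervals in any library, and how far the order holds between cultures is unknown. In both overexpressing libraries EIF4EBP1 came before EIF4B and EIF4G1 before EIF4A2. With the length of the longest coding transcript in place of all exon bases, EIF4A2 came first and EIF4A1 ninth, before EIF4E, in each library. The longest coding transcript of EIF4E has 11523 bases and that of EIF4A1 has 1756.

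The annotation sets EIF4A1 apart from its partners as well. In GENCODE v29, exons of other genes on the same strand covered 48.6% of the exon bases of EIF4A1, more than in 98.8% of protein-coding genes, whose median was 0%. Of its longest coding transcript (1756 bases), 100% lay under exons of such genes: AC016876.2 covered all 1756 bases and the readthrough gene SENP3-EIF4A1 covered 1466, or 83.5%. For the other 9 genes that share of the longest coding transcript was 0%. A row for each of those overlapping genes was in the table, but neither held many reads. The row with the identifier of AC016876.2, labelled SNORA67 there, had 28, 63 and 45 reads in ADAR2+SRSF9, ADAR2 and control, and SENP3-EIF4A1 had 49, 40 and 43. The neighbour SENP3, a SUMO protease gene that joins EIF4A1 in the readthrough, had 2257, 3034 and 3419 reads and was at 1.04 times the ADAR2 level in ADAR2+SRSF9 (0.986 to 1.101). How reads over bases shared by several genes were counted is not given in the sources used here, so the level of EIF4A1 is that of its row and its part in the messenger RNA was not tested. Of the 158 protein-coding genes with at least this share of covered exon bases, EIF4A1 included, 19 were past the threshold on the higher side in ADAR2+SRSF9 against ADAR2 and 4 on the lower. That is 12.03% and 2.53%, beside 2.89% and 1.64% of all protein-coding genes. In ADAR2+SRSF9 against control 44 of the 158 were higher and 5 lower, or 27.8% and 3.16%, beside 8.07% and 4.60%. In ADAR2 against control 26 were higher and 7 lower, or 16.5% and 4.43%, beside 3.09% and 3.29%. These shares were not matched for the level of the genes.

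The pseudogene rows of EIF4A1, summed, were lower in ADAR2+SRSF9 where the gene's row was higher. The table has 12 of them, and together they held 3913 reads in ADAR2+SRSF9, 7590 in ADAR2 and 8089 in the control, more than EIF4A1 itself in every library. ADAR2+SRSF9 was lowest, at 0.722 times ADAR2 (0.695 to 0.751) and 0.780 times the control (0.750 to 0.810). EIF4A1P10 alone held 2625, 5066 and 5317 reads, 1.23, 2.53 and 2.14 times those of the EIF4A1 row. It was at 0.726 times the ADAR2 level in ADAR2+SRSF9 (0.692 to 0.761). EIF4A1P7 was at 0.566 times the ADAR2 level, from 194 reads in ADAR2+SRSF9 and 480 in ADAR2. Another of the 12 rows, on chromosome 8 or Y, held more reads than EIF4A1P7 in every library. That row is in the sums but was not described alone.

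Adding the pseudogene rows to EIF4A1 turned its direction. The sum was 6040 reads in ADAR2+SRSF9, 9592 in ADAR2 and 10571 in the control, or 63.0, 71.4 and 68.4 CPM. ADAR2+SRSF9 was then lowest, at 0.882 times ADAR2 (0.854 to 0.911) and 0.921 times the control (0.892 to 0.9505). On the log2 scale this is -0.18 against ADAR2, where the gene's own row was at 0.57. Both values are of the same 3 libraries, and whether the pseudogene rows hold reads of EIF4A1 messenger RNA was not tested. With pseudogene rows on both sides, the EIF4A1 share of the helicase reads was 14.6% in ADAR2+SRSF9, 16.8% in ADAR2 and 14.2% in the control, and no longer highest in ADAR2+SRSF9.

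**Figure D4:**
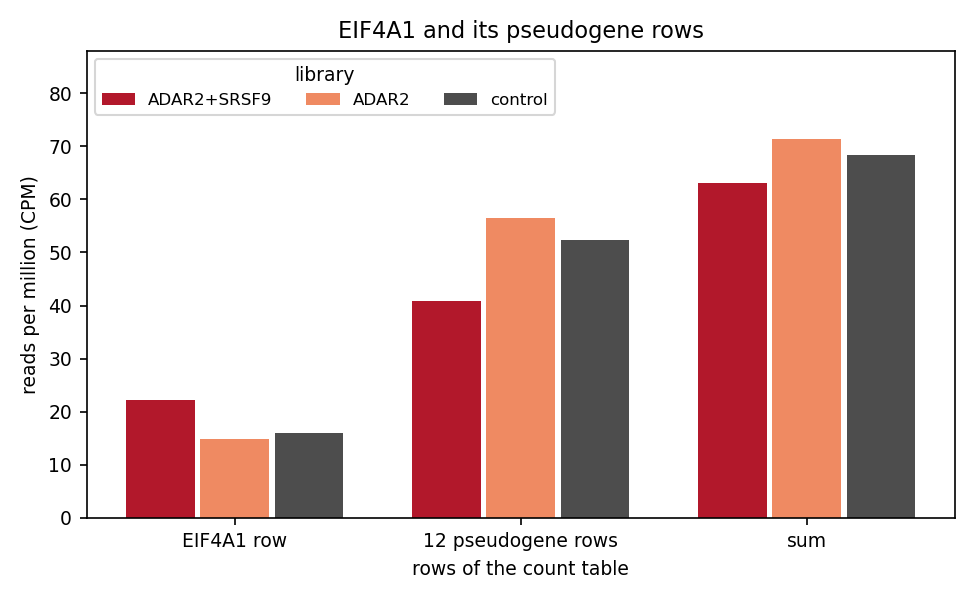
Level (y axis, CPM) of the EIF4A1 row, of its 12 pseudogene rows together and of their sum in the ADAR2+SRSF9, ADAR2 and control libraries. The EIF4A1 row is highest in ADAR2+SRSF9 at 22.2 CPM, and the pseudogene rows and the sum are lowest there, at 40.8 and 63.0 CPM.

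Such weight of pseudogenes was rare among the 10 genes and in the table. Pseudogene rows held 64.8% of the EIF4A1 sum in ADAR2+SRSF9, 79.1% in ADAR2 and 76.5% in the control. The same shares were 9.25%, 11.9% and 11.4% for EIF4B and 0.363%, 0.497% and 0.454% for EIF4A2. The largest EIF4A2 pseudogene row, EIF4A2P4, had 96, 174 and 218 reads and was at 0.773 times ADAR2 in ADAR2+SRSF9 (0.596 to 0.997). No pseudogene row of EIF4E, EIF4G1, EIF4G2 or EIF4G3 bears such a symbol. Over 1189 protein-coding genes with pseudogenes named after them, the median ratio of pseudogene reads to gene reads was 0.00397. EIF4A1, at 2.96, ranked 7th, and 17 of the genes had more reads in pseudogenes than in the gene. Of 20 such genes over 25% higher in ADAR2+SRSF9 against ADAR2 by their own row, 2 were below 1 once pseudogenes were added, EIF4A1 among them.

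The EIF4B pseudogene rows were lower in ADAR2+SRSF9 as well. EIF4BP6 had 2233, 3950 and 4753 reads in ADAR2+SRSF9, ADAR2 and control and was at 0.792 times ADAR2 in ADAR2+SRSF9. EIF4BP3 was at 0.764 times and EIF4BP7 at 0.618 times, with intervals below 1. All 8 EIF4B pseudogene rows together were at 0.713 times (0.691 to 0.736), and the EIF4B sum at 0.920 times (0.911 to 0.930), the same direction as the gene's own row. Both sets lay near the median log2 ratio of 1094 processed pseudogenes, which was -0.46 in this comparison, and 0.03 in ADAR2 against control. The 12 EIF4A1 rows together were at -0.47 and the 8 EIF4B rows at -0.49.

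Other initiation factors and regulators were described by 5 lists. In the 5 lists 73 of 75 genes were measured, and in ADAR2+SRSF9 against ADAR2 0 were past the threshold in either direction, beside 4.12% of all genes higher and 6.99% lower, or 0.492% and 2.22% at 10 CPM or more. A count of 0 among 73 is close to those last shares and is not read as a result about the lists. Their log2 ratios ran from -0.22 for PPP1R15B, a targeting subunit of the phosphatase that acts on eIF2, to 0.20 for TSC2, an inhibitor of mTOR signalling. Among the 17 eIF4F-linked factors the largest was PAIP2B at -0.20, an inhibitor of poly(A)-binding protein. EIF4A3, the eIF4A-like helicase of the exon junction complex, was at 0.09, and EIF4H, a further helicase cofactor, at -0.05. Among 19 genes of eIF1, eIF2, eIF5 and eIF6 the largest was EIF1B at -0.21, and among 14 eIF3 subunits EIF3C at 0.14, whose near-copy EIF3CL can share its reads. Medians of the 5 lists in this comparison lay between -0.01 and 0.07.

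Against the control, 2 of the 73 were higher in ADAR2+SRSF9 and 1 lower, which is 2.74% and 1.37%, beside 9.56% and 9.21% of all genes. At 10 CPM or more, 584 of 10362 genes were higher and 492 lower. Counts this small are not read as a result about the lists. EIF6, which keeps the large ribosomal subunit from joining too early, had 5746 reads in ADAR2+SRSF9, 7793 in ADAR2 and 7149 in the control (59.9, 58.0 and 46.3 CPM). The overexpressing libraries lay together above the control, at 1.30 times (1.251 to 1.34) in ADAR2+SRSF9 and 1.254 times (1.21 to 1.30) in ADAR2. In ADAR2 against control EIF6 was the 1 gene of 73 past the threshold, beside 4.52% of all genes higher and 3.84% lower. At 10 CPM or more, 137 of 10362 genes were higher there and 157 lower. TSC2 was at 126, 109 and 100.02 CPM in ADAR2+SRSF9, ADAR2 and control, so that ADAR2+SRSF9 was at 1.26 times the control (1.23 to 1.29). PPP1R15B was at 128, 149 and 164 CPM in the same libraries, and ADAR2+SRSF9 was at 0.779 times the control (0.763 to 0.796). The GC trend was not removed from these ratios of listed genes.

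The protein-coding genes most like EIF4A1 were sought by the distance between log2 levels centred over the 3 libraries, among 9594 genes with a mean of 10 CPM or more. The nearest were SPDYE2B, SPDYE2, UVSSA, PSEN2 and RWDD2B, at distances of 0.09 to 0.15. Their log2 ratios in ADAR2+SRSF9 against ADAR2 ran from 0.38 to 0.44, below that of EIF4A1. SPDYE2B and SPDYE2 are near-identical copies with 1158 and 1157 reads in ADAR2+SRSF9, and their reads can be shared between the rows. The measure rests on 3 libraries. None of the 5 has exon bases covered by other genes on its strand.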

How the data were processed

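RNA of 3 HEK293T libraries was analysed, 1 per group. The deposited table holds raw counts, whole numbers of reads for each of 57268 gene identifiers. Per the submitters' processing notes, the build was hg19 and the tools included STAR, Picard, GATK and SAMtools, without roles. No source used here gives the counting program, its strand setting or its treatment of reads with several matches, so reads of copies and overlapping genes may be shared or lost. Per the labels, the kit was directional. Columns were matched to libraries by the codes in the labels.

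TMM scaling (edgeR 4.0.16, R 4.3.3) gave factors of 0.979 for ADAR2+SRSF9, 1.01 for ADAR2 and 1.01 for the control. Ratios are of CPM, and log2 ratios use a prior count of 0.5. Counting intervals are exact Clopper-Pearson intervals at 95%, on the reads of both libraries. A count of 3 reads corresponds to 0.0313, 0.0223 and 0.0194 CPM in the same order. With 1 library per group no test was run. Ratios and calls were first tested on simulated counts with counting error only, which is what the intervals assume. Those counts held no spread between cultures and no reads shared between rows, so the check does not bear on either. Python 3.11.15, numpy 2.4.6, pandas 2.3.3, scipy 1.17.1, Biopython 1.88 and matplotlib 3.10.9 were used.

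GENCODE v29 (GRCh38) supplied exon bases, overlaps and the GC content of the longest transcript, and held 51802 of the identifiers. Since the authors used another build, coordinates are left out. Pseudogenes were found by symbol, the gene's name followed by P and any number.

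The genes and lists were chosen with earlier results of these data known. All 10 genes are named. From each list of factors, overlapping genes and pseudogenes, genes past the threshold in any comparison with a mean of 1 CPM or more are named, or else the one with the largest log2 ratio in ADAR2+SRSF9 against ADAR2. Pseudogene rows on chromosomes 8 and Y are an exception: they were kept in the sums but not named. Cell type markers are given as counts. HBB, HBD, HBA1, EIF4A3 and EIF4H were picked after their values were seen. The alternatives were DESeq2 1.42.0 size factors, plain totals, upper-quartile scaling, sizes without mitochondrial genes, ADARB1 and SRSF9, a prior count of 5, removal of a GC trend (median log2 ratio in 50 bins, smoothed over 5), thresholds of 1.1-fold and 1.5-fold, other filters, and addition of readthrough or pseudogene rows. Adding pseudogene rows to EIF4A2 and EIF4B, and ordering levels by the longest coding transcript, were chosen after seeing the data.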

Additional observations from a re-analysis of the deposited data

How the results depend on the processing

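Under 6 alternatives of scaling, prior count and GC trend, EIF4A1 stayed higher in ADAR2+SRSF9 and stayed above each partner in both comparisons of ADAR2+SRSF9. Its log2 ratio was 0.53 to 0.58 against ADAR2, where the partners ran from -0.12 to 0.09, and 0.42 to 0.47 against the control, where they ran from -0.23 to 0.22. A change of library sizes moves all genes of a comparison alike. The scaling alternatives therefore could not alter the distance from EIF4A1 to its partners, and a larger prior count changes little at these read counts. Only removal of the GC trend could have changed the order. Adding the SENP3-EIF4A1 row left EIF4A1 within its counting interval. Adding the pseudogene rows reversed it, to -0.18 against ADAR2 and -0.12 against the control, and gave 0.062 in ADAR2 against control. The cause was not tested. The EIF4A1 share of EIF4A1 and EIF4A2 reads in ADAR2+SRSF9, ADAR2 and control was 6.53%, 4.66% and 4.30% per kilobase and 14.6%, 16.8% and 14.2% with pseudogene rows.

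The median of the other 9 genes was -0.019 with plain library totals in ADAR2+SRSF9 against ADAR2. In ADAR2+SRSF9 against control it was -0.13 with plain totals and -0.017 with the GC trend removed, and in ADAR2 against control -0.042 with that trend removed. At 1.5-fold 0 of the 10 genes were past the threshold in each comparison with ADAR2+SRSF9. Of all 16072 genes, 545 were past it against ADAR2 and 641 against the control. At 1.1-fold 2 of the 10 were past it in ADAR2 against control, beside 6558 of the 16072. The counts were 1 beside 4393 in ADAR2+SRSF9 against ADAR2, and 6 beside 8142 in ADAR2+SRSF9 against control. These counts are not read as a result about the 10 genes.

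Counts over all genes moved with threshold and filter. In ADAR2 against control, 1343 genes were past the threshold, 6558 past 1.1-fold and 203 past 1.5-fold, with 294 at a mean of 10 CPM or more, 5147 without a filter and 815 among protein-coding genes. In ADAR2+SRSF9 against ADAR2 the counts were 1786, 4393, 545, 281, 5381 and 578 in the same order, and in ADAR2+SRSF9 against control 3017, 8142, 641, 1076, 7297 and 1617, with 1897 once the GC trend was removed. No paired analysis was possible because each group has 1 library. Counting error limits EIF4A1 most, at 2002 reads in ADAR2, and the spread between cultures is unknown for all 10 genes.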
